A study of Mus musculus with 7 samples.

Results

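Connexins are the proteins that build gap junctions, and 9 mouse connexin genes were followed across 7 libraries labelled as sorted glioblastoma cells. The genes were chosen by symbol from a list that names Gja1, Gja4, Gja5, Gjb1, Gjb2, Gjb6, Gjc1, Gjc3 and Gjd2. All 9 are among the 23282 entries of the deposited table. Of the 9, 7 had a count in any library, and 5 had enough counts for the test across all genes.

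Connexin subunits assemble into a half-channel in the plasma membrane, and half-channels of neighbouring cells dock to form a pore that passes ions, second messengers and small metabolites. Which connexins a cell makes decides which partners it can couple to. In brain, astrocytes are coupled mainly through the products of Gja1 and Gjb6, with Gjb2 as a minor partner, and oligodendrocytes make those of Gjb1 and Gjc3 among others. In the ovary, Gja1 couples granulosa cells to each other and Gja4 couples the oocyte to the granulosa cells around it. Gja4 and Gja5 are also connexins of vascular endothelium, Gjc1 is one of vascular smooth muscle and pericytes, and Gjd2 is the main connexin of electrical synapses between neurons.

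Per the labels, the libraries came from adult C57BL/6 mice with glioblastoma, 3 labelled WT and 4 labelled FYN-KO (Fyn-KO here). Fyn encodes a tyrosine kinase of the Src family. In both groups the cells had been isolated by flow cytometry as tdTomato-positive cancer cells, with 1 library per mouse. What drives tdTomato, how the tumours were started and which part of Fyn was altered were not given in the labels. The assay was QuantSeq, which reads 1 short tag near the 3' end of each captured mRNA, so values are counts per 1000000 counts of a library (CPM) and are not divided by gene length. Levels of different connexins are set side by side as tag levels only.

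The contents of the libraries bear on every value below. Totals were 11911864 to 16371244 counts in WT and 8976745 to 10396507 in Fyn-KO, while 7723 to 9924 genes had a count in WT and 13535 to 14548 in Fyn-KO. Rn45s, a precursor of ribosomal RNA, took 1.41 to 2.92% of counts in WT and 10.5 to 16.6% in Fyn-KO. It rose by 2.27 ± 0.39 on the log2 scale (edgeR adjusted p = 0.0121). In an alternative given below, Rn45s was left out together with the other most abundant genes. Its own part in the changes below was not tested. For Fyn itself the WT libraries read 1039, 719.9 and 1604 CPM, and the Fyn-KO libraries read 105, 106, 74.5 and 190 CPM. The Fyn-KO libraries went against their label as glioblastoma cells. Their summed CPM of 10 oligodendrocyte lineage markers was 225 to 1317, against 13115 to 29474 in WT. Their summed CPM of 9 markers of granulosa and luteal cells was 17442 to 18008, against 4.46 to 181 in WT, and all 7 oocyte markers had counts in Fyn-KO and none in WT. All 4 Fyn-KO libraries shared this, so no result can be given without such libraries. The share of these cell types in each result was not tested, and in bulk RNA fewer cells of a type and less RNA per cell cannot be told apart.

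Across all genes, 19.0% of the 13122 tested were higher in Fyn-KO and 3.51% were lower (edgeR quasi-likelihood test, Benjamini-Hochberg adjusted p under 0.05). Among the 9 connexins, 1 rose, which was Gja4, 1 fell, which was Gjc3, 3 were tested and did not pass (Gja1, Gjb1 and Gjc1), and 4 were not tested. In CPM, the Fyn-KO libraries lay wholly above WT for 2 connexins (Gja1 and Gja4) and wholly below for 1 (Gjc3), where 30.1% and 7.32% of all tested genes did so. A single rise among 5 tested connexins is thus near the share of all genes.

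**Figure D1:**
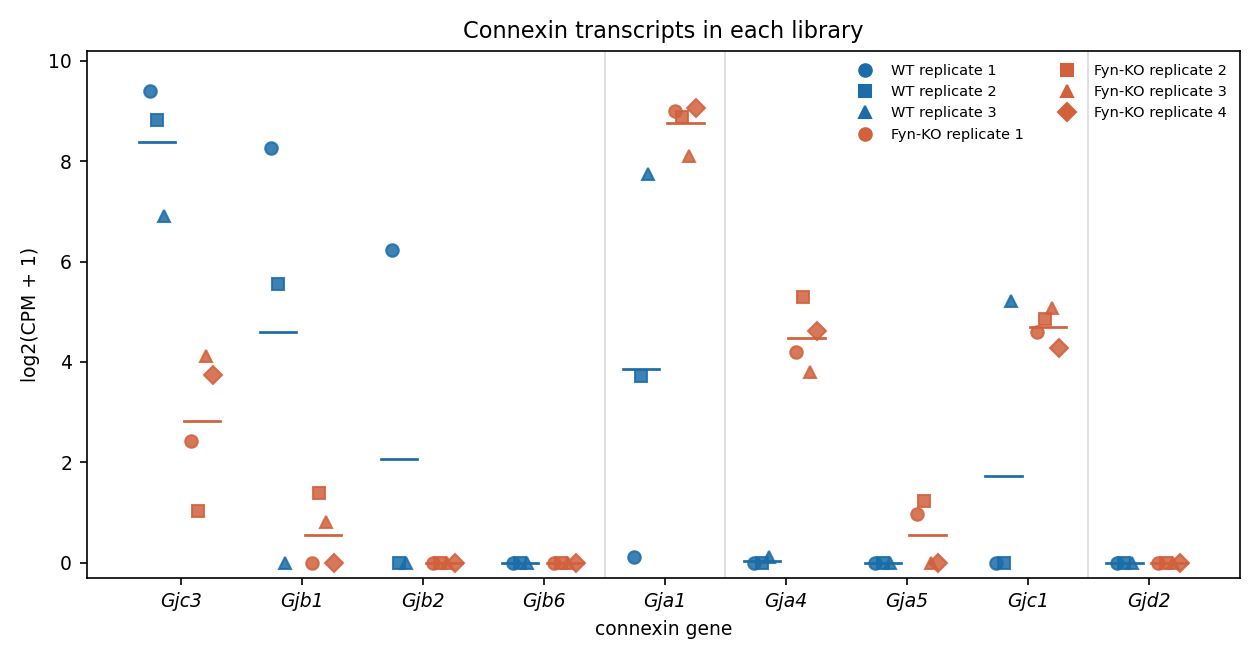
Level of each of the 9 connexins as log2(CPM + 1), with 1 point per library (3 WT in blue, 4 Fyn-KO in red, the shape giving the replicate) and a bar at the group's mean. Gjc3 is separated with WT above Fyn-KO, Gja1 and Gja4 with Fyn-KO above WT, and Gjb6 and Gjd2 lie at 0 in every library.

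Gjc3, a connexin of oligodendrocytes and their progenitors, had the highest mean tag level of the 9 connexins in WT and fell in Fyn-KO. It led in WT replicates 1 and 2, while in WT replicate 3 Gja1 was higher. The gene (ENSMUSG00000056966.7) lies on GRCm38 chromosome 5 from 137953461 to 137963098 on the minus strand, and no exon of another annotated gene shares its exonic bases. Its level was 674, 450.0 and 119 CPM in WT replicates 1 to 3 (mean ± SD of 414 ± 279, n = 3), against 4.37, 1.06, 16.4 and 12.4 CPM in Fyn-KO replicates 1 to 4 (8.55 ± 7.07, n = 4). The lowest WT library, replicate 3, was still above the highest Fyn-KO library, also replicate 3. The mean of WT was 48.5 times that of Fyn-KO. The edgeR test gave a log2 fold change of -5.53 ± 1.05 (SE) and an adjusted p of 0.0121. The exact two-sided permutation p of the difference in mean CPM was 0.0286, the smallest that 35 ways of dividing 7 libraries allow.

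Gjc3 kept a similar proportion to Olig2, a transcription factor of the oligodendrocyte lineage, in both groups. Per count of Olig2 the WT libraries held 0.189, 0.151 and 0.0815 counts of Gjc3, and the Fyn-KO libraries held 0.190, 0.216, 0.113 and 0.142. These ranges overlap although Olig2 itself ranged from 1464 to 3575 CPM in WT, against 4.91 to 146 CPM in Fyn-KO. Within Fyn-KO, Gjc3 and Olig2 had the same order of libraries, lowest in replicate 2 and highest in replicate 3. The ratio to Sox10, another transcription factor of that lineage, was looser, from 0.0687 to 0.320 in WT and from 0.0887 to 0.366 in Fyn-KO. The ratio to Mbp, a gene of mature myelin, ranged still more widely, from 0.0134 to 0.411 in WT and from 0.0101 to 0.159 in Fyn-KO. These pairs of genes were chosen after the values were seen and carry no test.

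Gjb1, the connexin of myelinating cells that is also abundant in liver, had high counts in some WT libraries and hardly any in Fyn-KO. The gene (ENSMUSG00000047797.14) lies on chromosome X from 101376378 to 101385629 on the plus strand. WT libraries read 308, 45.8 and 0 CPM (118 ± 166, n = 3), and Fyn-KO libraries read 0, 1.64, 0.766 and 0 CPM (0.600 ± 0.779, n = 4). The groups overlapped because WT replicate 3 had no count, which at its depth allows up to 0.252 CPM. The log2 fold change was -7.56 ± 2.76 and did not pass the edgeR test (adjusted p = 0.0856), and the exact permutation p was 0.143. Without WT replicate 3 the change passed (log2 fold change -8.15, adjusted p = 0.0244), and over the 6 fits without 1 library the adjusted p ran from 0.0244 to 0.226. Alb, which encodes albumin, a product of liver, read 423, 304.5 and 267 CPM in the same WT libraries and had no count in Fyn-KO. The other 3 liver markers did not follow it: Ttr read 91.6 CPM in WT replicate 2 and under 1 CPM in the other WT libraries, Serpina1a had counts in WT replicate 3 only (0.336 CPM), and Apoa1 was higher in Fyn-KO (5.27 ± 2.02 against 0.209 ± 0.263 CPM) without passing the edgeR test (adjusted p = 0.0694). The part of liver RNA in the Gjb1 counts was not tested.

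The 3 WT libraries thus held these oligodendrocyte connexins in different proportions. Replicates 1 and 2 had counts of both Gjc3 and Gjb1, and replicate 3 had counts of Gjc3 alone. Among 1633 genes whose highest WT library lay within 1.5 times that of Gjb1, 14.4% had no count in at least 1 WT library. Among 688 genes whose highest Fyn-KO library lay in that range, 0% had none in at least 1 Fyn-KO library. The part of such gaps in the missing Gjb1 counts was not tested. Mbp was not the lowest in the library without Gjb1, since the WT libraries held 7954, 1095 and 8929 CPM of it.

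The promoter windows of the connexins that were called or most abundant are printed from RefSeq (GRCm38.p6), each with 250 bases before an annotated start and 50 from the start on, 5' to 3' on the gene's strand. Windows were found for 8 of the 9 genes, with 4 start sites for Gjb1 and 1 for each other gene, and none was found for Gjc1. Capitals mark matches, on either strand, to the SOX letters ACAAAG or ACAATG, to the E-box CAGCTG bound by OLIG2, to the AP-1 letters TGAGTCA, and to AAGGTCA, a site of nuclear receptors such as NR5A1. These letters are found in 28.6%, 16.3%, 5.20% and 4.72% of 32851 such windows of all genes. The matches are a description of the windows and not of binding, and 3' tags do not show which start a transcript used. The Gjc3 window is chr5:137963049-137963348, minus strand, and holds none of these letters.

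Gjc3: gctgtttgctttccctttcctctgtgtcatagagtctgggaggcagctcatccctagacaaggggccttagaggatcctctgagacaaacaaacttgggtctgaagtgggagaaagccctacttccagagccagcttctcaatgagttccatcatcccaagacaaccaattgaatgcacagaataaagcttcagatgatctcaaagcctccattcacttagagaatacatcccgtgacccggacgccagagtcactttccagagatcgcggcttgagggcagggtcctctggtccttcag

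The Gjb1 window shown is that of the start nearest to the 3' end, chrX:101383482-101383781, plus strand. The downstream start of Gjb1 is known as the one used in the nervous system. The window shown holds 2 SOX matches, 57 to 52 and 47 to 42 bases before the start (the start itself being base 0). The latter is on the opposite strand. SOX letters were not confined to this window. The most upstream Gjb1 window has a SOX match 176 to 171 bases before its start, and the Gja5 window has 1 at 125 to 120 bases before. Start site 3 of Gjb1 has an AAGGTCA match 108 to 102 bases before it, on the opposite strand, and start site 2 has no match.

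Gjb1: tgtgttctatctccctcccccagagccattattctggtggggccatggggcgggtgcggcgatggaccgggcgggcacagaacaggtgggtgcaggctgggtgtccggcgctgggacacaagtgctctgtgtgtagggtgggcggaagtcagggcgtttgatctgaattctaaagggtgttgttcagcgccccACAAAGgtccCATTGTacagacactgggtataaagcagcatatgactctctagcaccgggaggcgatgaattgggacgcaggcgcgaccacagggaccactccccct

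The Gja1 window is chr10:56377050-56377349, plus strand, with an AP-1 match 19 to 13 bases before the start.

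Gja1: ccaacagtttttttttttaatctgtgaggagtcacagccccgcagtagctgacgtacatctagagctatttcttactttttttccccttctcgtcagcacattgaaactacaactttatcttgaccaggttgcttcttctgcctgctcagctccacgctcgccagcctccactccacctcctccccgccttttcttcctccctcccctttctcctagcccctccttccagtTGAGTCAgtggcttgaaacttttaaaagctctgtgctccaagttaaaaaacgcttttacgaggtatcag

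The Gja4 window is chr4:127313990-127314289, minus strand, with an E-box 7 to 12 bases after the start.

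Gja4: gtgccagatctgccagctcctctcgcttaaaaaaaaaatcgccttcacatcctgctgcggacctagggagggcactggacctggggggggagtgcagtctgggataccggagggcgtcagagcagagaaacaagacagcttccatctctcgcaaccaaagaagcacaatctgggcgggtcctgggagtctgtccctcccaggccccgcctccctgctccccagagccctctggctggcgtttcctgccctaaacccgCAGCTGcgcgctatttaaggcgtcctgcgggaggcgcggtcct

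Gjb2, a minor connexin of astrocytes, had counts in 1 library of the 7. The gene lies on chromosome 14 from 57098600 to 57104702. WT replicate 1 held 945 counts (74.0 CPM), and each other library held none, which allows up to 0.183 to 0.334 CPM. It was not tested, since it had counts in too few libraries. Aqp4, the water channel of astrocyte end-feet, had a like pattern. It read 123 CPM in WT replicate 1, 0 and 0.0840 CPM in the other WT libraries and 0 in Fyn-KO. None of the other astrocyte markers read was so confined to WT replicate 1. For example, Gfap read 96.4, 7.76 and 91.2 CPM in the WT libraries, and Slc1a2 read 879, 226 and 279 CPM. Gaps like those of Gjb2 were common in WT. Among 2677 genes whose highest WT library lay within 1.5 times that of Gjb2, 16.9% had no count in both of the other WT libraries. In 54.8% at least 1 WT library had none. Among 2841 genes whose highest Fyn-KO library lay in that range, 0.0352% had none in at least 1 Fyn-KO library. Gjb6, the neighbour of Gjb2 on chromosome 14 (57123303 to 57133611) and a main connexin of astrocytes, had no count in any library.

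Gja1, the connexin that astrocytes and granulosa cells share, was the most abundant connexin of each Fyn-KO library. The gene (ENSMUSG00000050953.10) lies on chromosome 10 from 56377330 to 56402513 on the plus strand. Fyn-KO libraries read 512, 471, 275 and 531 CPM (448 ± 118, n = 4), and WT libraries read 0.0783, 12.2 and 214 CPM (75.5 ± 120, n = 3). WT replicate 1 held 1 count and WT replicate 3 held 2551, close to the 2513 counts of Fyn-KO replicate 3, yet every Fyn-KO library was above every WT library. The mean of Fyn-KO was 5.93 times that of WT, but the log2 fold change of 2.16 ± 1.70 did not pass the edgeR test (adjusted p = 0.473), and the exact permutation p was 0.0571. That p was 0.0286 under TMM factors or without the most abundant genes, and 0.0571 under RLE factors. Without WT replicate 3 the log2 fold change was 6.44 and passed (adjusted p = 0.0359). With any other single library left out it was 1.57 to 2.52 and did not pass.

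Of 6 tested astrocyte markers, 3 fell in Fyn-KO and none rose, where 3.51% and 19.0% of all tested genes did. Aldh1l1, a folate enzyme of astrocytes, did not pass, with 0, 20.6 and 0.0840 CPM in the WT libraries and 5.58 to 27.8 CPM in Fyn-KO. The summed CPM of 7 astrocyte markers was 2076 to 4122 in WT and 83.0 to 169 in Fyn-KO, where Aqp4 had no count. In WT the sum was highest in replicate 1, the library with 1 count of Gja1. Among 2436 genes whose highest WT library lay within 1.5 times that of Gja1, 24.9% had no count in at least 1 WT library. The part of such gaps in that low count was not tested. Of 8 tested markers of granulosa and luteal cells, 5 rose and none fell. Foxl2, a transcription factor of granulosa cells, stood at 175, 211, 85.5 and 188 CPM in Fyn-KO and had 1 count in all of WT, and Gja1 had 2.92, 2.23, 3.22 and 2.83 counts per count of Foxl2. In both genes Fyn-KO replicate 3 was the lowest. It was also the library with the largest share of Rn45s, at 16.6% against 10.5 to 11.0% in the other Fyn-KO libraries. Of the other granulosa and luteal markers, Star, Inha, Lhcgr and Fshr were also lowest in that library. Cyp11a1 and Inhba were highest there (13175 and 117 CPM). Nr5a1 was lowest in Fyn-KO replicate 4, and Amh had counts in Fyn-KO replicate 1 only.

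In WT replicate 3 Gja1 had less of the granulosa and luteal markers beside it than in Fyn-KO. There Gja1 had 1.49 counts per count of Cyp11a1, the enzyme that starts steroid synthesis, against 0.0209 to 0.0460 in Fyn-KO. Foxl2 had no count there. Cyp11a1 was still highest of WT in that library, at 144 CPM against 4.46 and 0. Per count of the collagen gene Col1a2, Gja1 had 0.525 counts there and 0.957 in WT replicate 2, against 0.485 to 0.753 in Fyn-KO. The same WT library had the highest sum of 7 endothelial markers (828 CPM, against 1.10 and 20.0 in the other WT libraries and 368 to 424 in Fyn-KO). Its sum of 6 mural cell markers was the highest of WT (757 CPM, against 40.6 and 114.5) and lay within the Fyn-KO range of 711.5 to 880 CPM. Their part in its Gja1 counts was not tested.

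**Figure D2:**
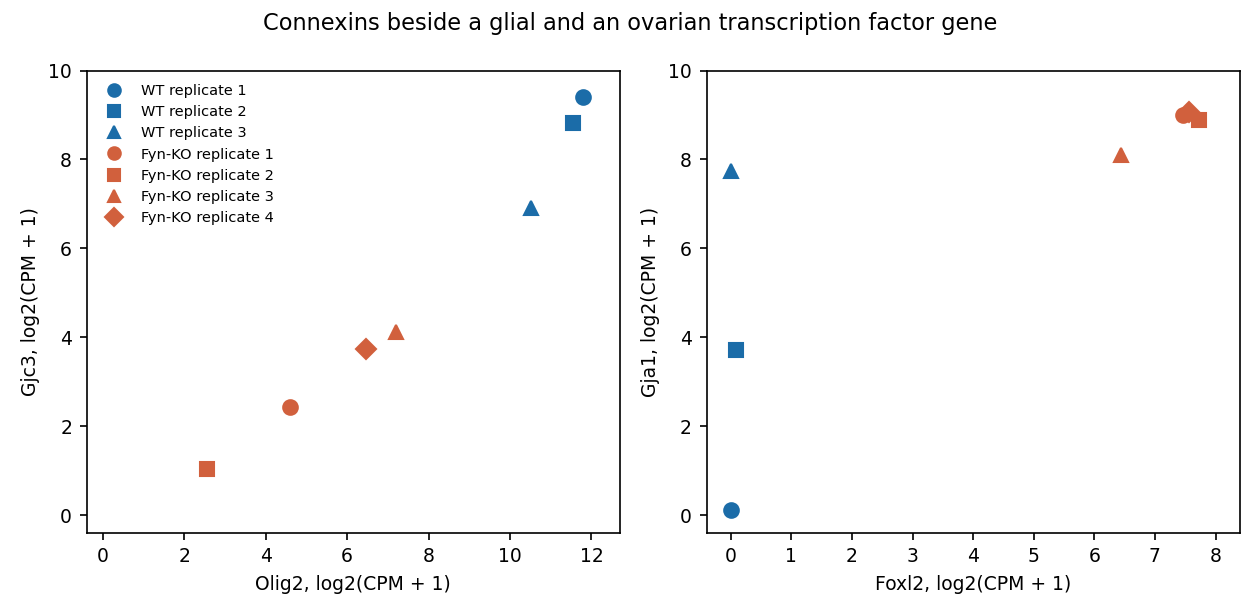
Gjc3 against Olig2 (left) and Gja1 against Foxl2 (right), both axes as log2(CPM + 1), 1 point per library, with WT in blue and Fyn-KO in red. Gjc3 is higher where Olig2 is higher within each group, whereas WT replicate 3 holds 214 CPM of Gja1 with no count of Foxl2.

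Gja4, the connexin of the oocyte and of arterial endothelium, was near absent from WT and present in each Fyn-KO library. The gene (ENSMUSG00000050234.7) lies on chromosome 4 from 127311421 to 127314039 on the minus strand. Its level in Fyn-KO was 17.3, 38.2, 13.0 and 23.4 CPM (23.0 ± 11.0, n = 4), while the WT libraries held 0, 0 and 1 counts. The ratio of pooled counts was 962, with a 95% exact interval of 172 to 38046 that covers counting error only. Gja4 passed the edgeR test (adjusted p = 0.0125), and its fitted log2 fold change of 9.06 ± 1.93 rests on that single WT count. The part of WT gaps like those of Gjb2 in the low WT counts of Gja4 was not tested. For its CPM the exact permutation p was 0.0571, and it was 0.0286 under TMM factors, RLE factors or without the most abundant genes. Its call held in each of the 7 fits without 1 library (adjusted p from 0.00567 to 0.0332), but limma-voom with quality weights did not call it (adjusted p = 0.389).

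Markers of both cell types known for Gja4 were present beside it. The sum of 7 oocyte markers was 30.5 to 56.6 CPM in Fyn-KO, with Gdf9, a growth factor secreted by the oocyte, at 17.8, 15.6, 20.1 and 8.80 CPM, and all 7 had no count in WT. Gja4 was highest in Fyn-KO replicate 2, where Gdf9 was lower than in replicates 1 and 3, and the ratio of Gja4 to Gdf9 ran from 0.647 to 2.66. Of 7 endothelial markers, all tested, 1 rose (Emcn, edgeR adjusted p = 0.0121) and none fell, where 19.0% and 3.51% of all tested genes did. Pecam1, an adhesion molecule of endothelium, stood at 87.7 to 136 CPM in Fyn-KO and 0 to 2.69 CPM in WT, and the ratio of Gja4 to Pecam1 ran from 0.127 to 0.343 in Fyn-KO. The groups overlapped in the other 5, of which Tek, Kdr and Cldn5 had the higher mean in WT through replicate 3. WT replicate 3, with the highest endothelial sum of all libraries, held 1 count of Gja4.

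Gja5, the second endothelial connexin, was at the limit of detection. The gene lies on chromosome 3 from 96904693 to 97077416, and an exon of Gpr89 on the opposite strand shares bases with it. It had 9 and 14 counts in Fyn-KO replicates 1 and 2 (0.959 and 1.35 CPM), and no count in the other Fyn-KO libraries or in WT. It was not tested, and the exact permutation p of its CPM was 0.429.

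Gjc1, the connexin of vascular smooth muscle and pericytes, was evenly present in Fyn-KO and in 1 WT library only. The gene (ENSMUSG00000034520.14) lies on chromosome 11 from 102799579 to 102819700 on the minus strand. Fyn-KO libraries read 23.1, 27.8, 32.8 and 18.4 CPM (25.5 ± 6.20, n = 4), and WT libraries read 0, 0 and 35.9 CPM (11.98 ± 20.7, n = 3). WT replicate 3 was above every Fyn-KO library, and the other WT libraries had no count, so the groups overlapped. The log2 fold change was 0.68 ± 2.28 (edgeR adjusted p = 0.896). Without WT replicate 3 the call was higher in Fyn-KO (adjusted p = 0.00778), at a fitted size that counts of 0 in WT do not set. Pdgfrb, a receptor of pericytes, likewise had 314 CPM in WT replicate 3 and no count in the other WT libraries, and stood at 16.0 to 54.6 CPM in Fyn-KO. Rgs5 and Des were also highest of WT in replicate 3, at 38.5 and 290 CPM, against at most 0.122 CPM in the other WT libraries. Tagln, a marker of contractile smooth muscle, read 0.235, 61.1 and 113 CPM in the WT libraries and did not pass (edgeR adjusted p = 0.372). Acta2 and Myh11, also markers of contractile smooth muscle, were low in WT replicate 3. Acta2 read 40.3, 53.3 and 1.34 CPM in the WT libraries, lowest in replicate 3, and Myh11 read 0, 0 and 0.504 CPM. Both rose in Fyn-KO, to 307 ± 70.5 and 103 ± 29.97 CPM (edgeR adjusted p = 0.0430 and 0.0168). They were the 2 called of 6 tested mural markers, where 19.0% of all tested genes rose. Among 1849 genes whose highest WT library was within 1.5 times that of Gjc1, 32.0% had no count in 2 WT libraries, as Gjc1 did. In 72.4% at least 1 WT library had none. Among 3418 genes whose highest Fyn-KO library lay in that range, 0.790% had none in at least 1 Fyn-KO library.

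Gjd2, the connexin of electrical synapses, had no count in any library. The gene lies on chromosome 2 from 114009601 to 114013619. Neuronal markers were low in both groups, with the sum of 6 at 46.6 to 122 CPM in WT and 36.0 to 49.8 CPM in Fyn-KO, and Slc17a7, a glutamate transporter of excitatory neurons, had no count in any library.

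**Figure D3:**
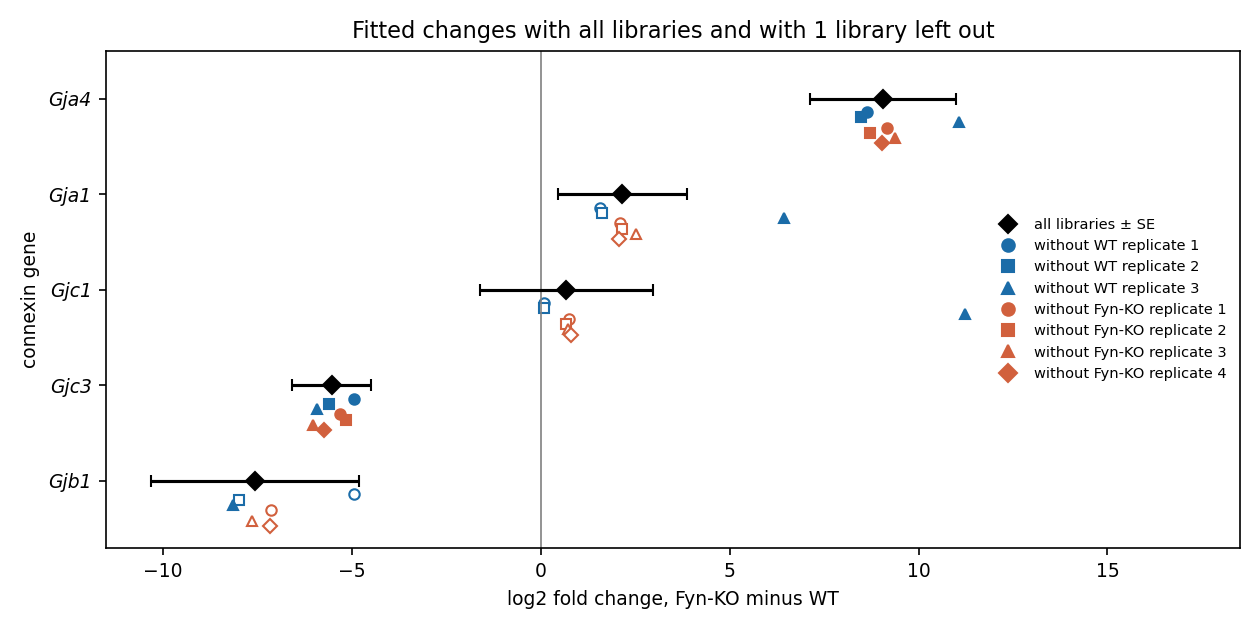
Log2 fold change, Fyn-KO minus WT, of the 5 tested connexins from the edgeR fit with all libraries (black diamond, bar = SE) and from fits without 1 library (WT in blue, Fyn-KO in red, filled where the adjusted p is under 0.05). Without WT replicate 3, Gja1 moves from 2.16 to 6.44 and Gjc1 from 0.68 to 11.24, while Gjc3 stays between -6.03 and -4.93 in the 7 fits.

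The summed level of connexin tags overlapped between the groups, while the genes that made it up were others. The 9 connexins together took 1056, 508 and 369.5 CPM in the WT libraries (644 ± 363, n = 3), against 558, 541, 338 and 586 CPM in Fyn-KO (506 ± 113, n = 4). Gja1 made up 91.8, 87.1, 81.4 and 90.8% of them in Fyn-KO and 0.00741, 2.39 and 58.0% in WT. Gjc3 made up 63.8, 88.6 and 32.3% in the WT libraries, against 0.783, 0.195, 4.86 and 2.11% in Fyn-KO. Gjb1, Gjb2 and Gjc3, the glial connexins without Gja1, together held 99.99, 97.6 and 32.3% in WT and 0.497 to 5.08% in Fyn-KO. Gja4, Gja5 and Gjc1, the follicular and vascular connexins without Gja1, together held 7.13 to 13.6% in Fyn-KO, 9.75% in WT replicate 3 and none in the other WT libraries. WT replicate 3 thus lay between the other WT libraries and Fyn-KO in its share of Gja1. Its summed share of Gja4, Gja5 and Gjc1 lay within the Fyn-KO range, but this was nearly all Gjc1 (9.7%). Gja4 held 0.0227% in WT replicate 3, against 3.09 to 7.05% in Fyn-KO.

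**Figure D4:**
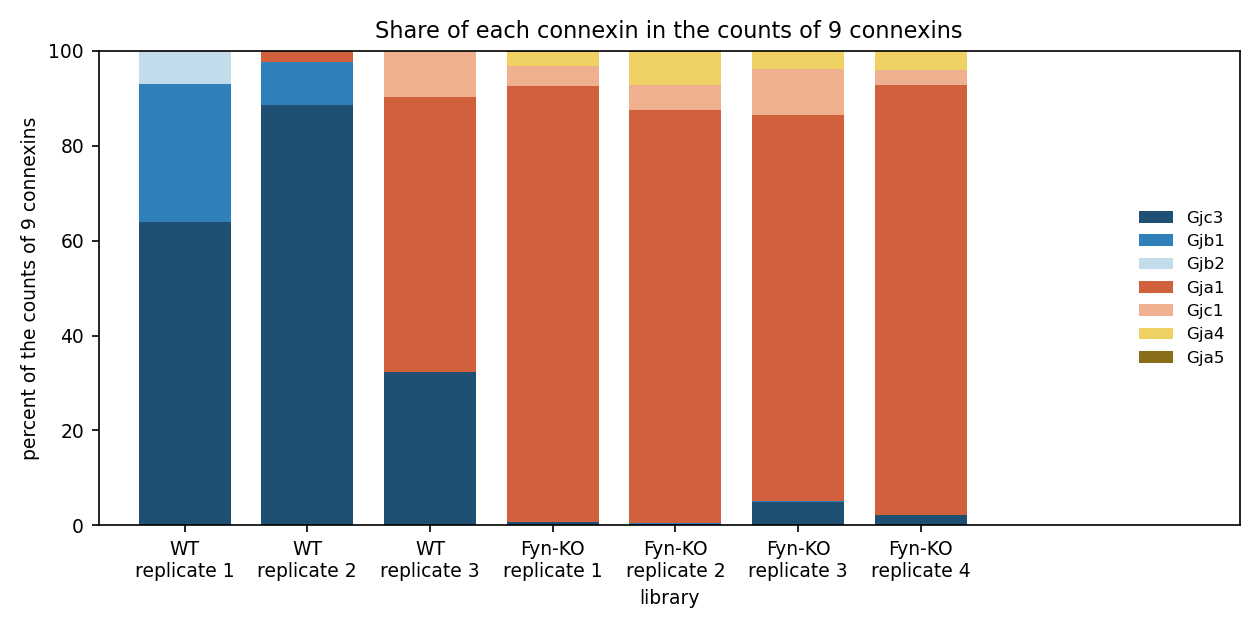
Percent of the summed counts of the 9 connexins in a library that each connexin took, in 3 WT and 4 Fyn-KO libraries. WT replicates 1 and 2 are mostly Gjc3 and Gjb1, the Fyn-KO libraries are 81.4 to 91.8% Gja1, and WT replicate 3 holds 58.0% Gja1 and 32.3% Gjc3.

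By mean tag level, the order in WT was Gjc3, Gjb1, Gja1, Gjb2, Gjc1 and Gja4. Gjc3 was above Gjb1 in 3 of 3 WT libraries, while any pair among Gjb1, Gja1, Gjb2 and Gjc1 differed by less than the larger of its SDs. In Fyn-KO the order was Gja1, Gjc1, Gja4, Gjc3, Gjb1 and Gja5. Gja1 was at least 8.38 times any other of the 9 connexins in each Fyn-KO library. Gjc1 came next in replicates 1 and 3, and Gja4 in replicates 2 and 4. Gjc1 and Gja4 differed by less than either SD, as did Gjb1 and Gja5. Gja4 was not above Gjc3 in Fyn-KO replicate 3, nor Gjc3 above Gjb1 in replicate 2.

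Another 10 connexins were read beside the 9 genes, of which 3 had any count and none had enough for the test. Gjd4 had 149 counts in WT replicate 2 and none elsewhere, Gjb5 had 2 counts in WT replicate 3, and Gje1 had 0 to 5 counts in each library. Among pannexins, which form channels of their own without docking, Panx1 read 0, 45.2 and 118 CPM in the WT libraries, against 15.2, 16.1, 20.9 and 9.36 CPM in Fyn-KO (log2 fold change -2.07 ± 1.81, edgeR adjusted p = 0.530). Panx2 had counts in Fyn-KO replicates 3 and 4 only (2.96 and 3.12 CPM), and Panx3 had none.

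Of 16 genes for partners and regulators of gap junctions, 15 were tested, none rose and 1 fell, which was Fyn (log2 fold change -3.43 ± 0.51, edgeR adjusted p = 0.0121). At an unadjusted p under 0.05, 0 were higher and 3 were lower, where 26.3% and 7.11% of all tested genes were. DESeq2 called 0 higher and 2 lower, against 27.2% of all tested genes higher and 918 of 13122 lower. Over the list the median log2 fold change was -0.83, against 0.45 over all tested genes. Src, the kinase best known to phosphorylate the Gja1 product on tyrosine, read 5.71, 175 and 33.2 CPM in the WT libraries, against 17.7, 17.4, 12.5 and 7.35 CPM in Fyn-KO (adjusted p = 0.246). Prkca, a protein kinase C, was higher in each WT library (66.8 to 152 CPM) than in any Fyn-KO library (16.5 to 41.0 CPM) and did not pass (adjusted p = 0.131). Akt1, a kinase of growth factor signalling, stood at 582 ± 332 and 287 ± 69.3 CPM (adjusted p = 0.137). Tjp1, the scaffold that binds the tail of the Gja1 product, read 0.0783, 92.9 and 0.504 CPM in the WT libraries, against 35.8 to 78.4 CPM in Fyn-KO (adjusted p = 0.754). With WT replicate 1 left out, 4 of 15 tested partners fell, namely Fyn, Csnk1d, Dbn1 and Src, where 729 of 14091 tested genes did. With WT replicate 2 left out Tjp1 and Cnst rose (edgeR adjusted p = 0.00809 and 0.00876). These were 2 of 15 tested partners, where 4585 of 13991 tested genes rose.

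The genes whose pattern over the 7 libraries was most like a connexin were found by the smallest root mean square difference of log2(CPM + 1), after each gene's own mean was taken off, among 9336 genes. For Gjc3 they were Cspg5, a neural proteoglycan (0.38), Pianp (0.55) and Olig2 (0.62). For Gja1 they were the collagen gene Col1a2 (0.33), Actn1, which encodes an actin crosslinker (0.48), and the collagen gene Col3a1 (0.50). For Gja4 they were Chek2 (0.15), Tmem192 (0.17) and Cdpf1 (0.18), each with under 0.1 CPM on average in WT. For Gjc1 they were Tubgcp3, Srrd and Cdc73 (0.25 to 0.28), and for Gjb1 Dnah10, Lrrtm1 and Cdr1 (0.74 to 0.85), a looser likeness. The measure takes in the difference between the groups and the gaps of single WT libraries, which many genes share.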

How the data were processed

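Transcript tags were counted in 3 WT and 4 Fyn-KO libraries prepared with the Lexogen QuantSeq kit per the labels. The authors deposited 1 table of counts per gene. The submitters' processing notes name Bowtie2, bedtools, DESeq2 1.32.0 and the build mm10 (GRCm38). The annotation, the strand of counting and what was modified in the table were not given there. The column of WT replicate 3 bears a name that 1 WT label claims and another WT sample has as its title, so it was used as a WT library only. Replicate numbers follow the columns and do not pair libraries.

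Genes were filtered with filterByExpr (minimum count 10, total 15), scaled by TMM factors and tested with the edgeR 4.0.16 quasi-likelihood F test in R 4.3.3 over all 13122 genes that passed, with Benjamini-Hochberg adjustment over all of them. An SE is the size of the log2 fold change divided by the root of F. Single CPM values were compared by exact two-sided permutation tests over 35 divisions. A count of 0 was read as allowing up to 3 counts per library; such limits and the 95% intervals cover counting error only. P-values measure the spread between these libraries, and no source used here mentions molecular identifiers. Alternatives were RLE factors, library totals, other filters, DESeq2 1.42.0, limma-voom (limma 3.58.1), leaving out the most abundant genes, a replicate block and leaving out each library. The edgeR script was tested on simulated data. Coordinates are from GENCODE M21 and promoter windows from RefSeq (GRCm38.p6). The 9 connexins were given by symbol, and the named lists, the rule for the 3 most alike genes and the partner list were written down at the start; all were chosen with earlier results of these data known. Gene pairs for ratios were chosen after the values were seen. Some genes of the lists are not reported here.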

Additional observations from a re-analysis of the deposited data

Results flagged for a closer look

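Among 24 genes of the connexin, pannexin and partner lists whose 4 Fyn-KO libraries were checked for a sample far from the others, 1 stood out, and chance marks about 5% of such groups. Ctnnb1, which encodes beta-catenin of cell junctions, stood at 444 CPM in Fyn-KO replicate 3 and at 733, 696 and 688 CPM in the other Fyn-KO libraries. Groups of 3 were not checked, which leaves out the WT libraries.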

How the results depend on the processing

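The fall of Gjc3 was called under each of 16 alternatives (log2 fold change -6.55 to -4.93, adjusted p up to 0.0344). Gja4 kept its direction in the 15 alternatives that tested it and was called in 13, with the exceptions limma-voom with quality weights and the replicate block (adjusted p = 0.389 and 0.258). No tested connexin changed direction under an alternative. The number of connexins higher in Fyn-KO was 0 in limma-voom and 0 when a gene needed a minimum of 10 counts in 2 WT and 3 Fyn-KO libraries, which leaves Gja4 out, where 2 and 0 were higher at an unadjusted p under 0.05. It was 1 to 3 with 1 library left out, the 3 being Gja1, Gja4 and Gjc1 without WT replicate 3. The number lower was 2 in DESeq2 (Gjb1 and Gjc3), and 1 to 2 with 1 library left out.

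Over all genes, 2493 were higher and 461 lower. The counts were 52 and 146 under that minimum, 24 higher in limma-voom, 918 lower in DESeq2, and 2190 to 4585 higher and 247 to 839 lower with 1 library left out. With the replicate block they were 188 and 135. That block called Gja1 (log2 fold change 5.54, adjusted p = 0.00285) in place of Gja4, but same-numbered libraries did not deviate together (correlations of -0.0133, -0.0081 and -0.0255 for numbers 1 to 3), so the numbers pair nothing. The cause of these shifts was not tested. Where a WT library had no count at a depth of 11911864 or more, a connexin level of up to 0.252 CPM was not detectable.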
